A study of Mus musculus with 6 samples.

Results

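The genes described here were the 5 mucosal keratins Krt4, Krt13, Krt23, Krt24 and Krt76, chosen by symbol as keratins of conjunctiva, mouth and other moist stratified epithelia. They were 5 of the 52 keratin genes and of the 17866 protein-coding genes in the deposited table, and the rule that fixed them used symbols alone, although earlier results of these data were known when it was written. The table held RNA-seq of corneal epithelium separated from C57BL/6 mice at 6 months of age, with 3 libraries of wild-type (WT) and 3 of Rela knockout (KO) genotype by their labels. Rela encodes p65, a DNA-binding subunit of NF-κB. In the study's methods the deletion came from a floxed Rela allele crossed to Krt14-Cre, so that it falls in K14-expressing epithelial cells, which occur in conjunctiva, oral mucosa and skin as well as in cornea. The labels give the controls only as WT, and they give no treatment.

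Keratin filaments are built from pairs of 1 acidic type I and 1 basic type II chain, and each kind of epithelium is known by its pair. Krt4 (type II) and Krt13 (type I) are the pair of the suprabasal cells of moist, non-cornified epithelia such as conjunctiva, mouth and oesophagus, whereas Krt12 marks the corneal epithelium and Krt1 with Krt10 the epidermis. Krt76 is a type II keratin of the palate and gum, Krt24 a type I keratin of late differentiating layers, and Krt23 a type I keratin whose partner is less well defined.

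The 6 libraries held between 20158404 and 20880347 estimated read counts. Rela had 1871, 1844 and 1855 counts in the WT libraries against 318, 223 and 313 in the KO libraries, so 16.5% of its WT level was left in KO. The corneal markers Krt12, Aldh3a1, Tkt, Slurp1 and Upk1b were present in all 6 libraries and all 5 were lower in KO, where Krt12 still reached between 109690 and 161317 counts. Profiles on the log2(CPM + 1) scale correlated at 0.989 to 0.993 within WT, 0.987 to 0.988 within KO and 0.845 to 0.872 between the groups (CPM, counts scaled to the library total with TMM factors). WT replicate 2 stood apart from the other WT libraries in several cornified-envelope and stress genes, and its part is given beside the results it touches.

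Krt13 was the most abundant mucosal keratin in every library. Its level per transcript length was 1095, 1097 and 1606 FPKM (reads scaled to transcript length and library total) in WT and 25768, 25014 and 18579 FPKM in KO. Every KO library lay above every WT library, and KO replicate 3 was the lowest of the KO libraries. Krt13 (gene 16663, GRCm38 chr11:100117327-100121566, minus strand) was 19.4-fold higher in KO in mean CPM, or by 4.28 ± 0.24 in log2 fold change (SE, n = 3 per group, edgeR adjusted p = 2.97e-06).

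Krt4, the type II partner of Krt13, started from a much lower level. It was measured at 41.5, 67.5 and 106 FPKM in WT and at 10287, 9714 and 9476 FPKM in KO. The 3 KO libraries were nearly alike, with a coefficient of variation of 4.24%, whereas the WT libraries spread over a coefficient of variation of 45.0% with WT replicate 3 highest. Krt4 (gene 16682, GRCm38 chr15:101918535-101924735, minus strand) was 146-fold higher in mean CPM of the KO libraries, and its log2 fold change was 7.19 ± 0.39 (SE, n = 3 per group, edgeR adjusted p = 2.78e-06).

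Krt76 was close to the bottom of the range in WT, with 12.8, 14.3 and 16.3 estimated counts or 0.27, 0.30 and 0.34 FPKM. The KO libraries held 76.4, 14.1 and 20.8 FPKM, all above WT but 5.61-fold apart in CPM, with KO replicate 1 highest. Krt76 (gene 77055, GRCm38 chr15:101884351-101892920, minus strand) had a log2 fold change of 7.06 ± 0.81 (SE, n = 3 per group, edgeR adjusted p = 1.31e-04), which fell to 5.95 without KO replicate 1.

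Krt24 was at the edge of detection in WT and clearly present in KO. Its estimated counts were 0, 3 and 1 in WT and 7720, 4412 and 459 in KO, which is 0, 0.09 and 0.03 FPKM against 221, 130 and 13.0 FPKM. KO replicates 1 and 2 were high and KO replicate 3 was 17.1-fold below KO replicate 1 in CPM, yet still above every WT library. The ratio of the summed counts, 12591 over 4 and scaled by library size, was 3395 with a 95% exact binomial interval of 1326 to 12463 that covers counting error only. The fitted log2 fold change of Krt24 (gene 75706, GRCm38 chr11:99280093-99285238, minus strand) was 11.60 ± 1.49 (SE, n = 3 per group, edgeR adjusted p = 2.38e-04). It depended on the prior count and was 10.81 without KO replicate 1 and 12.83 without WT replicate 2. Of the 13305 genes tested, 289 were like Krt24 at or under 3 counts in every WT library and above 3 in every KO library.

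Krt23 had the smallest change of the 5. It was measured at 5.71, 6.61 and 5.73 FPKM in WT and at 35.3, 28.8 and 36.9 FPKM in KO, with no overlap between the groups and little spread within them. Krt23 (gene 94179, GRCm38 chr11:99477973-99493110, minus strand) was 6.00-fold higher in mean CPM, a log2 fold change of 2.58 ± 0.14 (SE, n = 3 per group, edgeR adjusted p = 2.54e-06).

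**Figure D1:**
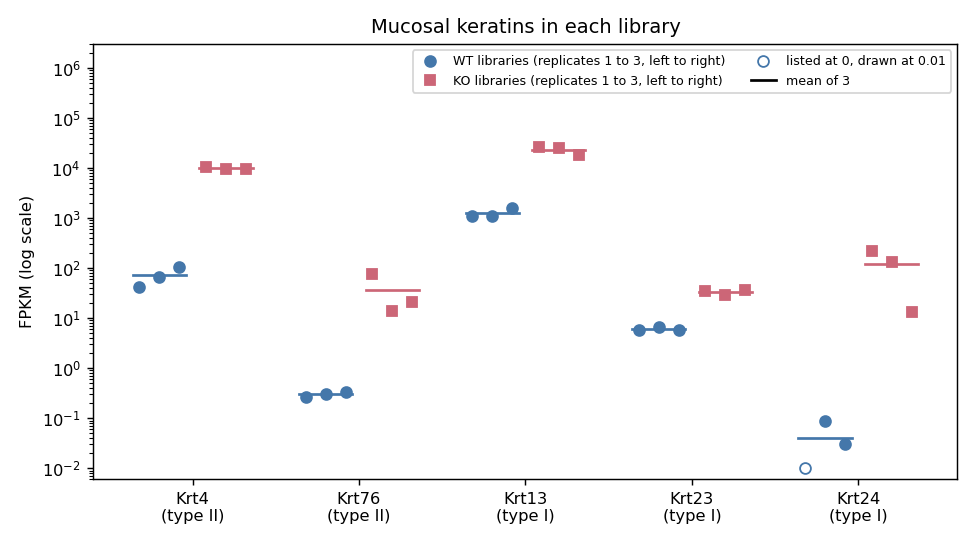
Level of each mucosal keratin in each library, in FPKM on a log axis, with WT libraries as circles, KO libraries as squares and the mean of 3 as a line. In all 5 genes every KO square lies above every WT circle, from 5.71 to 6.61 against 28.8 to 36.9 FPKM for Krt23 up to 0 to 0.09 against 13.0 to 221 FPKM for Krt24.

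All 5 mucosal keratins were higher in KO at an edgeR adjusted p of 0.05, and all 5 also passed the study's threshold of an adjusted p of 0.001 with a fold change of at least 2. Krt76 and Krt24 missed the study's threshold when WT replicate 1 or WT replicate 3 was left out, with edgeR adjusted p of 0.00125 and 0.00114 for Krt76 and 0.00199 and 0.00193 for Krt24. Over all 13305 tested genes the background was high. By the same test 62.0% were called in either direction, 31.8% as higher and 30.2% as lower, while 11.6% were higher at the study's threshold. The 3 KO libraries lay above the 3 WT libraries in all 5 members and in 34.7% of all tested genes. The median log2 fold change of the members was 7.06 beside 0.0063 over all tested genes, and only 28 tested genes had a larger log2 fold change than Krt24, 187 than Krt4, 203 than Krt76, 471 than Krt13 and 948 than Krt23. In these bulk libraries more cells that carry a keratin and more of its mRNA per cell cannot be told apart.

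The order of the members by FPKM was partly redrawn. In every WT library it ran Krt13, Krt4, Krt23, Krt76, Krt24, without overlap between neighbours. In KO, Krt13 and Krt4 stayed on top without overlap, but the ranges of Krt24, Krt76 and Krt23 overlapped. Krt24 came next after Krt4 in KO replicates 1 and 2 and was the lowest member in KO replicate 3, where Krt23 came next with 36.9 FPKM. Krt13 made up between 93.5% and 95.8% of the members' summed FPKM in WT and between 66.1% and 71.7% in KO, and all members other than Krt13 and Krt4 together remained under 1% in every library.

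The pair Krt4 and Krt13 joined the most abundant transcripts of the KO epithelium. Among all 17866 genes Krt13 ranked 39, 40 and 25 by FPKM in the WT libraries and 1 in each KO library. Krt4 moved from ranks 1631, 964 and 559 to ranks 2, 3 and 3. The 5 members together accounted for 0.249%, 0.252% and 0.360% of the summed TPM (a length-scaled share of transcripts) in WT and for 6.71%, 6.25% and 5.05% in KO, while all keratins together accounted for between 9.19% and 10.3% in WT and between 12.5% and 14.3% in KO.

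The keratin mRNA as a whole was therefore examined by kind. The mucosal keratins took 2.64%, 2.46% and 3.92% of the summed keratin FPKM in WT and 46.9%, 44.3% and 40.3% in KO. The mean rose from 3.01% ± 0.79 to 43.8% ± 3.30 (SD, n = 3 per group), a difference of 40.8 percentage points, with every KO library above every WT library. Krt12 went from 49.7% ± 1.58 to 5.49% ± 1.25, and the basal class of Krt5, Krt14 and Krt15 from 32.1% ± 0.78 to 16.1% ± 1.5. Within the basal class the genes moved differently. Krt5 fell from 12714 ± 759 to 4643 ± 178 FPKM, while Krt14 rose from 376 ± 332 to 6122 ± 701 FPKM. Krt15 was at 1317 ± 257 and 1368 ± 163 FPKM and was not called. The epidermal class of Krt1, Krt2, Krt10, Krt77, Krt78 and Krt80 went from 0.883% ± 0.18 to 7.80% ± 2.29. In WT this class was mostly Krt80, which was not called (337 ± 64.9 FPKM in WT, 236 ± 53.1 in KO). Krt1 rose from 3.19 ± 0.09 to 2357 ± 1472 FPKM and Krt10 from 4.11 ± 0.94 to 3164 ± 217 FPKM. The stress class of Krt6a, Krt6b, Krt16, Krt17 and Krt75 went from 14.0% ± 1.67 to 26.4% ± 1.85. The mucosal class was the largest in every KO library, followed by the stress class, and it outweighed the epidermal one by FPKM in each.

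**Figure D2:**
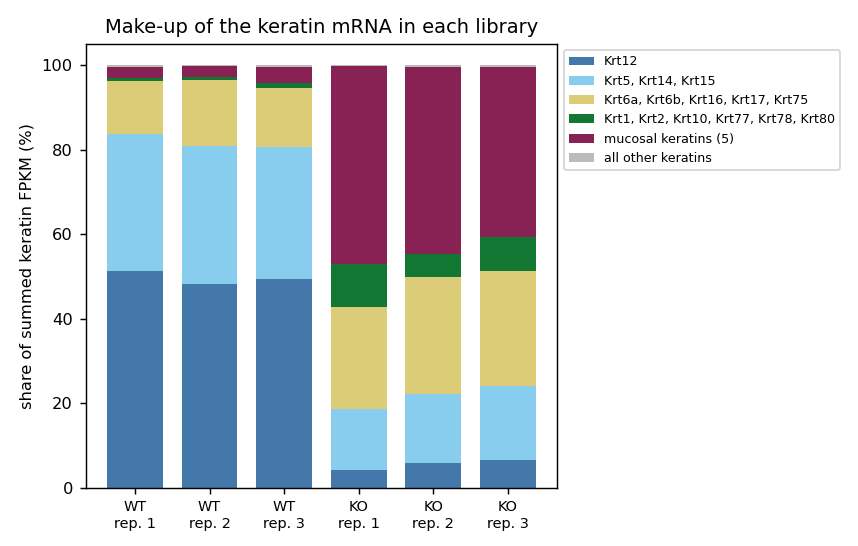
Share of each kind of keratin in the summed keratin FPKM of each library, in percent, with 1 bar per library. Krt12 fills between 48.2% and 51.3% of the WT bars and between 4.10% and 6.51% of the KO bars, and the mucosal keratins fill between 2.46% and 3.92% of the WT bars and between 40.3% and 46.9% of the KO bars.

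Since filaments pair a type I with a type II chain, the balance of the pair was compared between the genotypes. There were 26.3, 16.3 and 15.2 Krt13 transcripts for each Krt4 transcript in the WT libraries, taken as FPKM ratios, and 2.50, 2.57 and 1.96 in the KO libraries. Krt4 thus gained on Krt13 in every KO library, by 3.0 in log2 ratio (two-sided exact permutation p = 0.1, the smallest possible). Over all 52 keratins the ratio of type II to type I FPKM was 0.756, 0.772 and 0.740 in WT and 0.798, 0.772 and 0.826 in KO. These ranges overlapped, and the difference in log2 ratio was 0.08 (two-sided exact permutation p = 0.2).

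**Figure D3:**
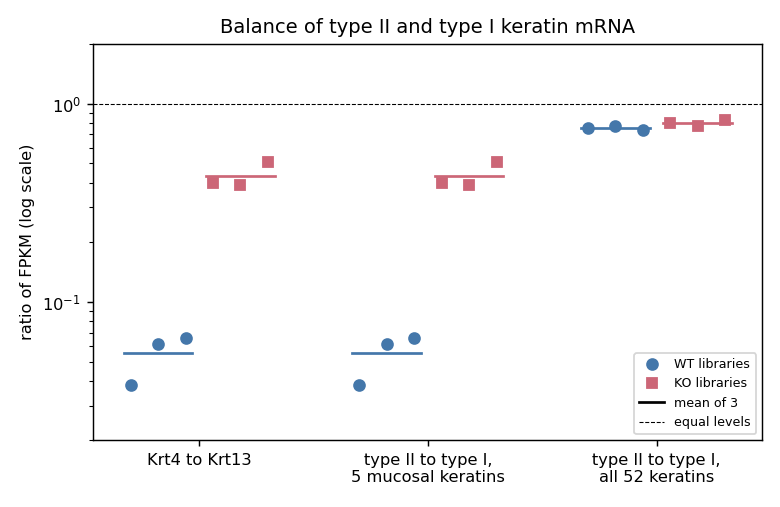
Ratio of type II to type I keratin mRNA in each library, from FPKM on a log axis, for Krt4 to Krt13, for the 5 mucosal keratins and for all 52 keratins. The Krt4 to Krt13 ratio lies between 0.0380 and 0.0657 in WT and between 0.388 and 0.510 in KO, while the ratio over all keratins stays between 0.740 and 0.826 in all 6 libraries.

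The promoters of the members are shown as a description of their letters. All 5 genes were higher in KO, but so were 15 of the 22 other keratins tested. Rela, the deleted gene, encodes a DNA-binding protein, and the part of these windows in the change was not tested. The 4 members with an entry in the RefSeq promoter table (build GRCm38.p6) are printed as the 250 bases before the transcript start, 5′ to 3′ on the minus strand that each gene uses. Krt4 had no entry. The windows are chr11:100121567-100121816 for the upstream one of the annotated starts of Krt13, chr15:101892921-101893170 for Krt76, chr11:99285263-99285512 for Krt24 and chr11:99493121-99493370 for Krt23. Capitals mark matches, on either strand, to the motifs named in the next paragraph.
Krt13: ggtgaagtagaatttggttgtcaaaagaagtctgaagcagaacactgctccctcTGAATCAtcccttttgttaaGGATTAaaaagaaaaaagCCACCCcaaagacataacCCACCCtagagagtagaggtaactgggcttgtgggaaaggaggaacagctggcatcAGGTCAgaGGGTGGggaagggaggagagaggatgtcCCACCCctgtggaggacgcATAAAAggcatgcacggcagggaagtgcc
Krt76: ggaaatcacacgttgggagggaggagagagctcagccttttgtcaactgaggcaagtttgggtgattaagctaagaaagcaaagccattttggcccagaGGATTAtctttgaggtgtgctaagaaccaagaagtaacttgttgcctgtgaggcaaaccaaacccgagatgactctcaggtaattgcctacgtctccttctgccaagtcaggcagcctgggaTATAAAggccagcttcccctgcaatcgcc
Krt24: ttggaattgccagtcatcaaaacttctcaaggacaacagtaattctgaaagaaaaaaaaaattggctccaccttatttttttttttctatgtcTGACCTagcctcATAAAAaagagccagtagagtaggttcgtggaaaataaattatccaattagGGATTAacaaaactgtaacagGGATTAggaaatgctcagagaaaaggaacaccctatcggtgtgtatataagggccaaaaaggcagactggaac
Krt23: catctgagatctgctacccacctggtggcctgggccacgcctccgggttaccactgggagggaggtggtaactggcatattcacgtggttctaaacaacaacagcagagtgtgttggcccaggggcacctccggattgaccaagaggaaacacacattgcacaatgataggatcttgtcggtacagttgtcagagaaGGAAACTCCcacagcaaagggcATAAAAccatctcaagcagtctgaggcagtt

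The motifs were chosen after the values had been seen, and each match is a description of letters. GGATTA, the core bound by homeodomains of the Pitx type, was found in 6.25% of 32851 mouse promoter windows of the same length and occurred in Krt13, in Krt76 and at 2 places in Krt24, but not in Krt23. The NF-κB core GGANNTTCC, found in 3.59% of promoters, occurred only in Krt23, between 53 and 45 bases before its start on the opposite strand. The Klf box CCACCC (28.1% of promoters) occurred 4 times in Krt13 and in no other window shown. AGGTCA, a half-site of retinoid receptors (14% of promoters), occurred in Krt13 and Krt24. The pattern TGANTCA (6.75%), a loose form of the AP-1 site with any middle base allowed, occurred only in Krt13, as TGAATCA. The window before the other annotated start of Krt13 is not printed. It held TGANTCA, both times as TGACTCA, between 183 and 177 and between 34 and 28 bases before that start. None of the other motifs of this paragraph occurred in it. TATAAA (12.4%) lay between 29 and 24 bases before the start of Krt76. ATAAAA (17%), which can overlap it, lay between 29 and 24 bases before the start of Krt13 and between 31 and 26 before Krt23. In Krt24 it lay between 145 and 140 bases before the start. The Krt24 window also holds the letters tatataag close to its start, which match neither TATAAA nor ATAAAA, and similar letters were not looked for.

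The members lie in the type I keratin cluster on chromosome 11 and the type II cluster on chromosome 15, and the change did not extend evenly to their neighbours. Krt15, a basal keratin whose annotated start is 14432 bases from that of Krt13, had 2190 ± 470 CPM in WT and 2432 ± 317 CPM in KO and was not called (log2 fold change 0.15 ± 0.18 SE, edgeR adjusted p = 0.483). On the other side of Krt13, the hair keratin Krt36 had 4 to 5 counts in WT against 9 to 14 in KO, too few to be tested. Next to Krt76, the epidermal keratin Krt77 was at 0.357 ± 0.15 and 0.268 ± 0.08 CPM in WT and KO and was too low to be tested. Krt79, 10797 bases from Krt4, was called higher, but with only 2, 1 and 0 counts in WT against 13, 12 and 23 in KO. Next to Krt24, Krt25 was near 0 in every library and Krt222 held 7.39, 5.11 and 5 counts in WT against 27.2, 50.4 and 5.06 in KO, and next to Krt23, Krt20 and Krt39 were near 0 in both groups.

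**Figure D4:**
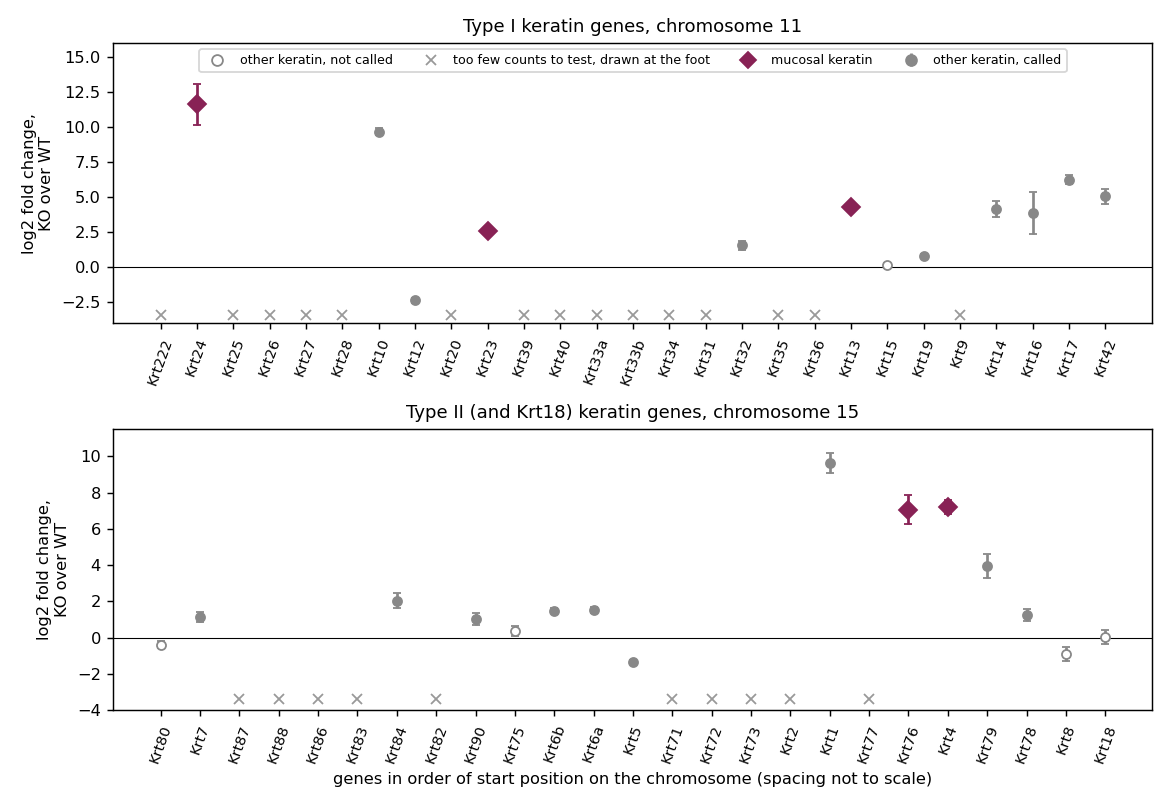
Log2 fold change of KO over WT (edgeR, bars are standard errors) for the keratin genes of the 2 clusters, in gene order, with mucosal keratins as diamonds, uncalled genes open and genes with too few counts as crosses at the foot of each panel. Of the 22 other keratins tested 15 were higher, 2 (Krt12 and Krt5) lower and 5 not called, and Krt4 at 7.19 and Krt76 at 7.06 stand side by side on chromosome 15, with Krt79 at 3.94 next to Krt4.

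Of the 47 other keratins, 22 were tested, of which 15 were higher, 2 (Krt12 and Krt5) lower and 5 not called. Their median log2 fold change was 1.36, and over all tested genes 31.8% were higher and 30.2% lower. The epidermal keratins Krt10 and Krt1 had larger log2 fold changes (9.67 and 9.64) than Krt4, from 145 to 226 counts and 159 to 167 counts in WT. The log2 fold change of Krt1 was 9.01 without KO replicate 1. Krt78, the remaining called keratin of the epidermal list, rose by 1.24. The stress keratin Krt17 rose by 6.25 in log2, and Krt6a, already abundant in WT, by 1.51. Krt16, a further stress keratin, had 209 and 360 counts in WT replicates 1 and 3 but 18787 in WT replicate 2, and 79508 to 94747 in KO. Its log2 fold change was 3.86 (edgeR adjusted p = 0.0479) and 8.36 without WT replicate 2, and the call was lost when any of the other 5 libraries was left out (adjusted p of 0.0621 to 0.0857). The simple keratins Krt7 and Krt19, which are also found in conjunctiva, rose by 1.13 and 0.79, whereas Krt8 lay at 11.3 ± 2.89 CPM in WT against 6.02 ± 3.09 in KO and was not called.

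A list of genes other than keratins, drawn up for moist mucosal epithelium, did not move in 1 direction. It also held cornified-envelope genes and genes already abundant in WT corneal epithelium, such as Muc4, Emp1 and Mal (means of 7941, 7326 and 4575 CPM). The list therefore does not single out mucosal cells. Of 18 listed genes, 16 were tested, of which 7 were higher, 7 lower and 2 not called, with a median log2 fold change of -0.29. The shares over all tested genes were 31.8% higher and 30.2% lower. The largest rises were those of cornified-envelope genes. Sprr3, a small proline-rich protein typical of oesophagus and mouth, had 0, 22 and 11 counts in WT and reached 73995 to 101054 in KO, which is a log2 fold change of 13.10 ± 0.65 (SE, edgeR adjusted p = 1.97e-06). Cnfn and Sprr1a, which encode cornified-envelope proteins, rose by 7.34 and 7.19 in log2. Without WT replicate 2, which held 299 and 1606 counts of them against 63 to 131 and 299 to 481 in the other WT libraries, the values were 8.11 for Cnfn, 8.22 for Sprr1a and 14.08 for Sprr3.

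Other genes of the same list were chosen for naming after their values were seen. Crnn, which encodes the oesophageal and oral envelope protein cornulin, had 15, 11 and 9 counts in WT against 1332, 594 and 347 in KO, and its log2 fold change of 6.12 was 5.42 without KO replicate 1. In the opposite direction, the membrane mucin Muc4 fell by 1.30 in log2, from 7941 ± 626 to 3227 ± 493 CPM, the protease gene Tmprss11e fell by 1.27 and the envelope gene Evpl fell by 1.17. Summed over the 18 genes the level was 26890 to 32240 CPM in WT and 24536 to 32348 CPM in KO, so the groups overlapped. Large changes in opposite directions offset each other in this sum. Muc4 and Mal (4575 to 2269 CPM) were lower in KO, whereas Sprr3 and Sprr1a rose from 0.515 and 37.1 to 4542 and 5422 CPM. Emp1 (7326 ± 1773 CPM in WT, 5137 ± 1040 in KO) and Tmprss11g (597 ± 72.1 and 568 ± 89.3 CPM) were tested and not called, although Emp1 was called lower without WT replicate 2 or without KO replicate 3 (log2 fold changes of -0.61 and -0.68), and Rhcg and Muc16 had at most 11 counts in any library.

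Goblet cells, the mucus-secreting cells of the conjunctiva, were looked for because the same epithelium carries Krt4 and Krt13. The table held 10 goblet genes, and 6 were tested, of which 4 were higher, 1 lower and 1 not called, with a median log2 fold change of 3.46. Over all tested genes 31.8% were higher and 30.2% lower. Muc5ac, the gel mucin of conjunctival goblet cells, had no count in any WT library and 141, 15 and 214 counts in KO, at least 44.3-fold higher against a floor of 3 counts per library. Muc5b had 0, 1 and 2 counts in WT against 158, 14 and 155 in KO, a ratio of summed counts of 118 (95% exact binomial interval 39.9 to 573, counting error only). Spdef, a transcription factor of goblet cells, had 3.18, 6.22 and 6.96 counts in WT against 216, 69.9 and 205 in KO. In all 3 genes KO replicate 2 was the lowest KO library and still above WT. Tff1, Tff2, Foxa3 and Gcnt3 had at most 8 counts in any library, and the summed level of the list was 156 to 176 CPM in WT and 60.4 to 112 CPM in KO while Fcgbp, its most abundant gene, fell by 1.51 in log2. In KO replicates 1 to 3 Krt13 had 43614, 40309 and 30821 CPM, and Krt4 had 23115, 21022 and 21099 CPM. Without KO replicate 2 the log2 fold changes were 4.24 for Krt13 and 7.22 for Krt4. Beyond these values, the part of conjunctival cells in the levels of the mucosal keratins was not tested.

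Among 11 transcription factors of oral and ocular surface epithelium, 10 were tested. Of these 5 were higher, 2 lower and 3 not called, with a median log2 fold change of 0.50, beside 31.8% higher and 30.2% lower over all tested genes. Pitx1, a homeobox gene of oral epithelium, had 33, 46 and 14 counts in WT against 4937, 3286 and 3597 in KO, which is a log2 fold change of 7.10 ± 0.33 (SE, edgeR adjusted p = 1.54e-06). Sox2, which marks progenitors of oral and oesophageal epithelium, had 0, 1 and 0 counts in WT against 1092, 760 and 877 in KO. Pax9, needed in the epithelium of palate and oesophagus, rose by 2.67 in log2 but only to 3.29 ± 0.86 CPM. Pax6, the master gene of eye development, named here after its value was seen, was lower by 1.54 in log2 but kept between 4762 and 5331 counts in KO.

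**Figure D5:**
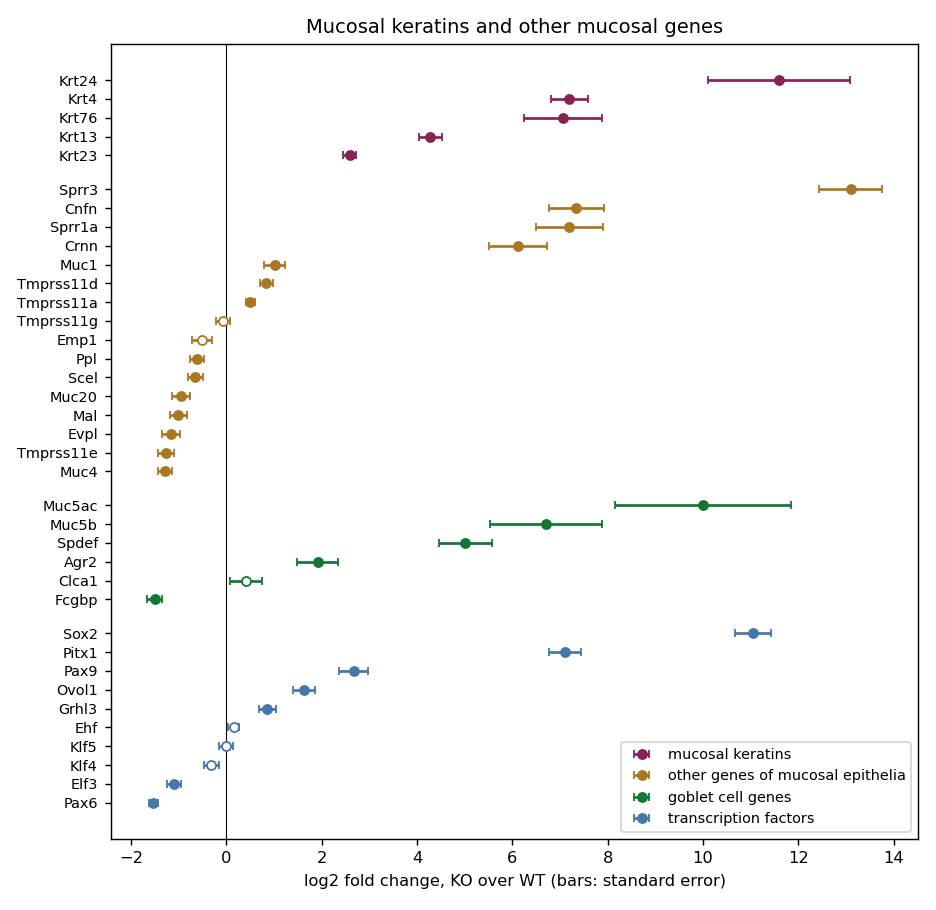
Log2 fold change of KO over WT (edgeR, bars are standard errors) for the 5 mucosal keratins and for the tested genes of 3 lists, with uncalled genes open. All 5 keratins lie right of 0, between 2.58 and 11.60, while each of the other lists has genes on either side of 0, from -1.54 for Pax6 to 13.10 for Sprr3. The values of Krt24, Muc5ac and Sox2 depend on the prior count.

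Some stromal, immune and meibomian gland markers were also higher in KO, whereas no melanocyte marker was. The counts that follow stand beside 31.8% of all tested genes called higher and 30.2% called lower. Of 6 stromal genes 4 were tested and all 4 were higher. The summed level of the list was 0.687 to 2.74 CPM in WT and 13.6 to 23.3 CPM in KO. The stromal gene Dcn had 1, 0 and 1 counts in WT against 153, 24 and 93 in KO, whereas Lum had at most 4 counts in any library. Vim and Col1a2, an intermediate filament and a collagen of stromal cells, rose by 3.51 and 3.38 in log2, and Col1a2 by 4.60 without WT replicate 2. The call of the collagen Col1a1 was lost without WT replicate 1, WT replicate 3, KO replicate 2 or KO replicate 3 (edgeR adjusted p of 0.0546 to 0.103), and its log2 fold change of 1.95 was 3.30 without WT replicate 2. Of 5 immune genes 4 were tested and 3 were higher (Lyz2, Ptprc and Cd74), with a summed level of 36.6 to 39.3 CPM in WT and 81.3 to 129 CPM in KO. The remaining tested immune gene, Cd68, was not called, at 29.6 ± 3.24 CPM in WT and 31.5 ± 5.69 in KO (edgeR adjusted p = 0.627). All 3 meibomian gland genes that the table held were tested and 2 were higher (Far2 by 3.53 and Awat2 by 1.30 in log2), at summed levels of 4.81 to 6.56 and 11.7 to 14.7 CPM, and of 3 melanocyte genes tested 2 (Dct and Pmel) were lower, at summed levels of 7.51 to 9.71 and 5.32 to 5.37 CPM. The part of these cells in the result was not tested.

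The KO libraries did not rank alike for all members. Relative to the mean of the KO libraries on the log2(CPM + 1) scale, Krt76 deviated by 1.44, -1.01 and -0.43 in KO replicates 1 to 3 and Krt24 by 1.62, 0.80 and -2.42. KO replicate 1 was thus highest for both. The same library was highest for Krt1, which deviated by 0.97, -0.92 and -0.05, and for Crnn, which deviated by 1.02, -0.13 and -0.89. This was not particular to them. KO replicate 1 was also highest for genes of other kinds, such as Muc5b (0.82), Dcn (0.87) and Pitx1 (0.36), but not for Cnfn, Muc5ac, Ptprc or Krt12. The other members were more even, with deviations of 0.09, -0.05 and -0.04 for Krt4, 0.20, 0.09 and -0.30 for Krt13, and 0.10, -0.24 and 0.15 for Krt23. With 3 libraries these orders were not tested.

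The genes whose profile over the 6 libraries was most like that of each member were found by the distance between centred log2(CPM + 1) profiles among 9531 genes, as a description with 6 libraries shared by all genes. The nearest to Krt4 were Car12, a carbonic anhydrase, Sbsn, a secreted protein of cornifying epithelium, and Serpinb3c, at distances from 0.587 to 1.04. Car12 had 55, 68 and 109 counts in WT against 12346, 14642 and 10868 in KO, and like Krt4 was highest in replicate 3 among the WT libraries. Rnase1 and Me1 were among the nearest to Krt13 (0.401 and 0.421), and Fam213a, Adgrf2 and Eva1c to Krt23 (0.284 to 0.298). The 1 added to CPM shrinks the rise of genes near 0 in WT. Rnase1 had 0, 1 and 3 counts in WT and a fitted log2 fold change of 8.27, against 4.28 for Krt13. Lypd5, Gas7 and Pla2g4d were nearest to Krt76, each highest in KO replicate 1 and lowest in KO replicate 2. Krt24 had no close neighbour, since its nearest gene, Dsc1, a desmosomal cadherin of cornifying layers, was 2.27 away.

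Keratins share conserved stretches, so the reads of 1 gene can be assigned in part to another. Of the windows of 50 bases (the read length) in the GENCODE transcripts of the members, none of Krt23 or Krt24 came within 2 mismatches of another keratin. For Krt13 1.18% and for Krt4 1.92% of windows did, and for Krt76 6.98%, mostly with Krt6a. Exact matches to another gene were found for Krt76 alone, in 62 of its 2263 windows (2.74%), shared with 5 genes and mostly with Gm44356. The estimated counts of Krt4, Krt13 and Krt76 were not whole numbers in any library, whereas those of Krt23 and Krt24 were whole in all 6. Krt6a had between 109597 and 157871 counts in WT against at most 16.3 of Krt76, so the small WT level of Krt76 is uncertain, and the part of shared reads in it was not tested.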

How the data were processed

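RNA came from the separated corneal epithelium of independent biological samples. The study's methods describe depletion of ribosomal RNA and single-end reads of 50 bases from a BGISEQ instrument, while an Illumina kit is named in the labels. Reads were filtered by the authors (SOAPnuke), aligned (Bowtie2 2.2.5) and turned into gene levels (RSEM 1.2.12), and the submitters' processing notes name mm9 although the coordinates in the table are those of GRCm38. The authors deposited estimated counts, which RSEM splits among genes that share reads, FPKM, which divides them by length and library total, and TPM. Their deposited group means, fold changes and p-values from DESeq2 were not used. Whether counting used strand is not stated.

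Libraries were grouped by their genotype labels and titles. After rounding, the estimated counts were compared by edgeR 4.0.16 under R 4.3.3 (TMM, filterByExpr, glmQLFit, glmQLFTest, genotype as the only term, Benjamini-Hochberg over 13305 genes). Standard errors are the log2 fold change over the square root of F. Ratios were compared by two-sided exact permutation tests (scipy 1.17.1), for which 3 against 3 allows no p under 0.1. A floor of 3 counts was 0.137 to 0.152 CPM, and such floors and intervals cover counting error only. The genes named were the members, Rela, the 3 largest called changes of each list, keratins next to a member, and the 3 genes nearest to each member in profile, while some others were named after their values were seen. The members and lists were chosen with earlier results of these data known. In simulated data with 13305 genes, edgeR called 97% of genes changed 4-fold, 78% of those changed 2-fold and 9 unchanged genes. Only 100 genes were changed 4-fold and 100 changed 2-fold there, while 62.0% of the genes were called in the data. The simulated rates therefore need not hold for this comparison. The alternatives replaced the tool (DESeq2 1.42.0), the scaling (RLE, library totals alone, or TMM that ignores the 20 most abundant genes), the filter (none, or means of 50 counts and more) or the dispersion (robust), or used limma 3.58.1 on log2(FPKM + 1) and log2(FPKM + 0.1), blocked on the replicate number, or left out each library. Promoters came from RefSeq (GRCm38.p6), transcripts from GENCODE. Tff3, Elovl3, Krt74, Krt81 and Krt85 of the lists were not analysed here, and 1 gene near to a member in profile is not reported here. Tables and plots were made with Python 3.11.15, pandas 2.3.3, numpy 2.4.6 and matplotlib 3.10.9.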

Additional observations from a re-analysis of the deposited data

How the results depend on the processing

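All 5 mucosal keratins were called higher under each of the 16 alternatives. The log2 fold change ranged from 6.92 to 7.62 for Krt4, 4.17 to 4.51 for Krt13, 2.30 to 2.70 for Krt23, 4.50 to 7.46 for Krt76 and 6.16 to 12.83 for Krt24. The lowest values of Krt76 and Krt24 came from limma on log2(FPKM + 1), where the pseudocount is larger than their WT level. The highest adjusted p over the alternatives was 3.70e-05 for Krt4, 6.48e-05 for Krt13, 5.04e-05 for Krt23, 0.00329 for Krt76 and 0.00665 for Krt24, the last 2 from edgeR with robust dispersion. The difference in the share of keratin FPKM ranged from 37.9 to 42.6 percentage points, and the log2 difference in the Krt4 to Krt13 ratio from 2.76 to 3.15. The count of called genes ranged from 14 to 15 for the other mucosal genes, 5 to 6 for the goblet genes, 6 to 8 for the transcription factors and 12 to 22 for the other keratins, of which 12 were called when a mean count of at least 50 was required and fewer genes were tested.

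The titles number the libraries 1 to 3 in both genotypes. Deviations of same-numbered libraries correlated at 0.06, -0.02 and 0.06. With 3 libraries a group these values cannot show whether same-numbered libraries shared a batch. With the replicate block the log2 fold changes were 7.30 for Krt4, 4.29 for Krt13, 2.58 for Krt23, 6.85 for Krt76 and 11.58 for Krt24, and all 5 were called.

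The depth limits what can be said of Krt24 and Krt76 in WT, where at most 3 and 16.3 counts were found. With 3 libraries a group, the spread among KO libraries of Krt76 and Krt24 is known only roughly. The table gives no cell types and no protein levels.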

Other observations

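Some keratins of low level that are no mucosal keratins were also higher in KO. Krt42, a type I keratin at the far end of the chromosome 11 cluster, had at most 1.11 estimated counts in WT and between 23.0 and 24.9 in KO, a ratio of summed counts of 39.4 (95% exact binomial interval 10.5 to 331, counting error only). The table held 14 hair keratins, of which 2 were tested and both were higher, beside 31.8% of all tested genes. Krt32 had 7 to 13 counts in WT against 25 to 34 in KO, and Krt84 had 10.9 to 29.6 and 55.0 to 92.4. The log2 fold change of Krt84 was 2.03, and 2.62 without WT replicate 2. Hair keratins as a class made up at most 0.00484% of the keratin FPKM of any library, so they changed nothing in the shares of the mucosal keratins.

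Krt14, whose promoter drives the Cre of the study, had 5207, 25395 and 6712 counts in WT against between 184060 and 223531 in KO, so WT replicate 2 held several times more than the other WT libraries. The log2 fold change was 4.15 with all libraries and 5.21 without WT replicate 2. This gene was named after its values were seen.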
